A study of Mus musculus with 3 samples.

Results

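Collagen chains were followed in dorsal skin of newborn uncv null mice and a wild type sister. They were taken as the genes whose symbol has the form Col, a number, a and a number, with Col17a1 left out, from probe sets (groups of short probes for 1 transcript) that the array annotation pairs with exactly 1 gene. This gave 41 collagen genes with 81 probe sets, out of 18193 genes with such a probe set, and where a gene had several, the one with the highest mean stood for it. Testing required that this mean be 5 log2 units or more, which 22 collagens reached and 19 did not. The array data comprised 1 wild type (uncv +/+) and 2 uncv null (uncv -/-) samples, called null 1 and null 2, from 4-day-old female BALB/cA mice born to heterozygous (uncv +/-) parents, with 1 array for each. The samples share strain, sex, age and tissue, and no treatment is named. Uncovered (uncv) is a spontaneous germline mutation with defective hair, mapped to Rhbdf2, which encodes iRhom2, an inactive rhomboid protein that escorts the shedding protease ADAM17. The question addressed is how transcript levels in skin just after birth depend on uncv.

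Collagens are triple-helical proteins of the extracellular matrix. In the dermis, fibroblasts secrete type I, III and V chains that co-assemble into the fibrils giving skin its tensile strength, and fibril-associated collagens with interrupted helices (FACITs) decorate the fibril surface. Beneath the epidermis and around vessels, muscle fibres, nerves and adipocytes, type IV chains form the network of the basement membrane, to which type VII anchoring fibrils attach. The collagens were grouped as fibrillar (types I, II, III, V, XI, XXIV and XXVII), basement membrane and its zone (IV, VII, XV and XVIII), FACIT (IX, XII, XIV, XVI, XIX, XX and XXII) and other (VI, VIII, X, XIII, XXIII, XXV and XXVI).

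Values are deposited log2 expression values, so a difference of 1 is 2-fold, and levels of different probe sets were not set against each other. Rhbdf2 was at 5.83 in wild type, 6.29 in null 1 and 6.49 in null 2, and this does not check the labels, since the position of the probes against the mutation is not known here. The tissue label was met by the keratinocyte markers Krt5 (11.39, 11.34 and 11.55 in the same order) and Dsp (11.01, 11.27 and 11.40), and 14 of 15 fibroblast markers passed the filter. The arrays were unequal in quality measures: 18S ribosomal RNA averaged 3.59, 7.93 and 4.26 over its 3 probe sets, and the 3′ probe set of the actin control exceeded the 5′ one by 0.66, 1.23 and 0.79. Hybridisation spike-in controls averaged 7.53, 8.26 and 8.00 over 14 probe sets, so on these both uncv null arrays lay above wild type. Over tested probe sets the SD of the log2 difference from wild type was 0.350 for null 1 and 0.432 for null 2, and the uncv null arrays differed from each other with an SD of 0.416.

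Most of the tested collagens lay below wild type in uncv null skin, by amounts that were small and larger in null 2 than in null 1. Of 22 tested collagens, 13 read lower than wild type on both null arrays and 4 read higher on both, namely Col4a1, Col4a2, Col18a1 and Col5a3. Over all 8456 tested genes, 26.4% were lower in both and 38.8% higher in both, so the collagens were divided the other way from the array as a whole. The median difference was -0.22 for the collagens and 0.04 for all tested genes. Taken array by array, 13 collagens lay below wild type in null 1 (median -0.04) and 18 in null 2 (median -0.29). Of all 8456 tested genes, 3930 lay below wild type in null 1 (median 0.03) and 3480 in null 2 (median 0.07). Null 2 was the lowest of the 3 arrays for 15 of the 22, against 30.4% of all tested genes. Both differences share the 1 wild type array, and these counts are descriptions of 3 arrays. In whole skin, fewer cells of a type and less RNA per cell cannot be told apart.

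No single collagen passed the test. By limma, with p adjusted by Benjamini-Hochberg across every tested probe set, 0 of 22 collagens were called (adjusted p = 0.9996 for each), as were 0% of all tested genes. In the same limma fit across all probe sets, 1 collagen, Col26a1, was under an unadjusted p of 0.05, where 1.31% of all tested genes were lower at that level. None of the 22 was at least 2-fold from wild type in both uncv null arrays, a size reached by 0.225% of tested genes upward and 0.296% downward. At 1.5-fold there was 1 collagen, again Col26a1, against 1.35% of tested genes downward. The SE of a collagen's mean difference ran from 0.26 to 0.48, and the half-width of its 95% interval from 0.63 to 1.18. These intervals are not adjusted for the number of probe sets, so the half-width is not the size that the adjusted test could detect. That test called no gene, although mean differences over all tested genes ran from -2.50 to 4.10. An exact permutation of 1 array against 2 cannot give a p below 0.333.

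**Figure D1:**
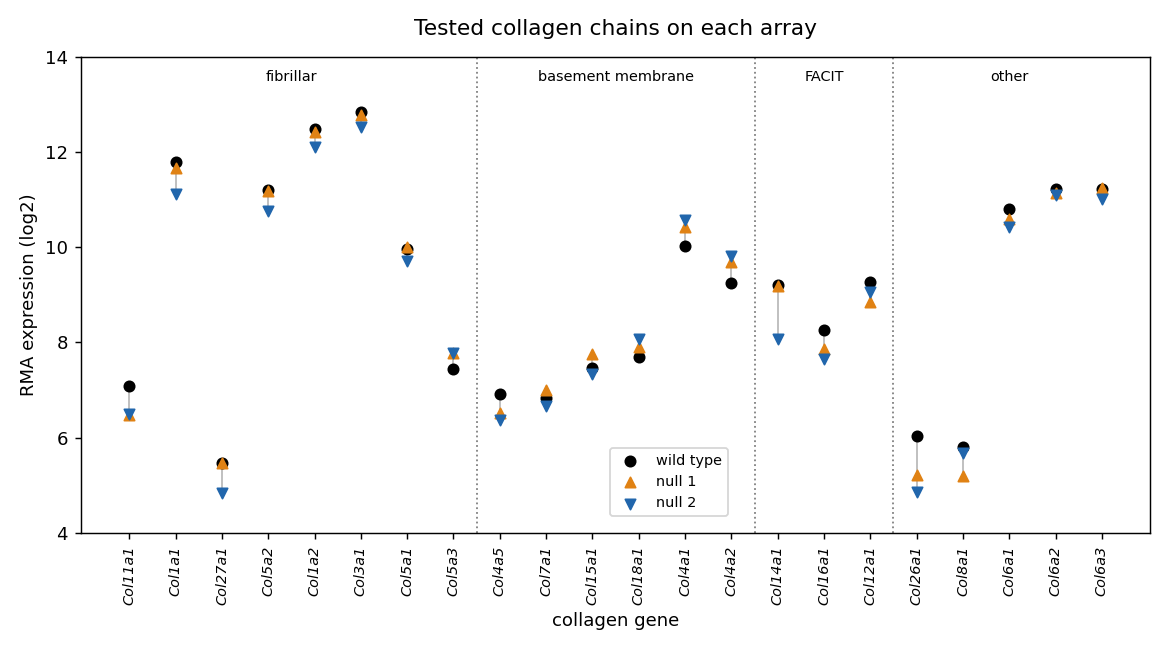
Deposited log2 expression (vertical axis) of the 22 tested collagens on each of the 3 arrays, ordered within groups by mean difference; grey lines join a gene's lowest and highest array. The black wild type points lie above both uncv null points for 13 genes and below both for Col4a1, Col4a2, Col18a1 and Col5a3; heights of different genes are not comparable.

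The major fibrillar chains of the dermis were nearly level with wild type in null 1 and lower in null 2. Col1a1 and Col1a2, which encode the chains of type I collagen, the main protein of the dermis, went in the same direction. Col1a1 read 11.79 in wild type, 11.66 in null 1 and 11.13 in null 2, a mean difference of -0.40 ± 0.32 (limma's moderated SE, 1 against 2 arrays, as for all such errors below). Col1a2 read 12.49, 12.42 and 12.11 (-0.22 ± 0.28). A second Col1a1 probe set read higher in both uncv null arrays, and averaging both turned the Col1a1 difference to 0.37. In the representative probe sets of both genes the uncv null arrays differed from each other (by 0.54 and 0.31) more than null 1 differed from wild type. Col3a1, whose chains form the type III homotrimer that is abundant in young, extensible skin, read 12.85, 12.78 and 12.52 (-0.20 ± 0.27). Its neighbour on chromosome 1, Col5a2, read 11.19, 11.18 and 10.76 (-0.22 ± 0.30). Col5a1, the other main chain of type V, which nucleates type I fibrils and limits their diameter, read 9.97, 9.995 and 9.71 (-0.11 ± 0.28), so wild type lay between the uncv null arrays. By the representative probe sets of these 5 dermal fibril chains null 2 was the lowest array each time, with a deficit of 1.59-fold for Col1a1, 1.30-fold for Col1a2, 1.25-fold for Col3a1, 1.35-fold for Col5a2 and 1.19-fold for Col5a1 on that array alone.

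The upstream windows of Col1a2 and Col3a1 are shown because their chains lie in the same fibrils and their differences ran in parallel. They are the 250 bases before the annotated start in RefSeq (GRCm38.p6, plus strand), at chr6:4505368-4505617 for Col1a2 and chr1:45311288-45311537 for Col3a1. Capitals mark matches to CCAAT or TATAAA on either strand.
Col1a2: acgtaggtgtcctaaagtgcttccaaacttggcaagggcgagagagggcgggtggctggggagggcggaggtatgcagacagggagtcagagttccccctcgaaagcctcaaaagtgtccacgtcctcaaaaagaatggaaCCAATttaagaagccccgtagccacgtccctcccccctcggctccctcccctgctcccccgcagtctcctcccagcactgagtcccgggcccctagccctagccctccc
Col3a1: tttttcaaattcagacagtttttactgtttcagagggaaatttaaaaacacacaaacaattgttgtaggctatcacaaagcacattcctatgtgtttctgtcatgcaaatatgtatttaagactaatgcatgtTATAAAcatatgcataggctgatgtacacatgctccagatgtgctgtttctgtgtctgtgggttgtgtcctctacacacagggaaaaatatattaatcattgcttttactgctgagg
The Col1a2 window held CCAAT, beginning 109 bases before the start, and no TATAAA. The Col3a1 window held TATAAA, beginning 117 bases before the start, and no CCAAT. Among all 32851 windows of this length 33.8% held CCAAT and 12.4% held TATAAA, so either match is common and describes the letters only. RefSeq windows were matched for 32 of the 41 collagens, 17 of them tested, and in these genes' 35 windows CCAAT was found in 12 and TATAAA in 4. The GC box letters GGGCGG, searched on both strands as well, were in 21 of the 35 windows and in 32.7% of all windows. They occurred 2 times in the Col1a2 window and 0 times in that of Col3a1. Base composition was not matched between these windows, and this is a description only.

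The minor fibrillar chains went in different directions. Col11a1, a chain best known from cartilage fibrils, read 7.08 in wild type, 6.47 in null 1 and 6.51 in null 2 (-0.59 ± 0.26, 95% interval -1.23 to 0.04), and here the uncv null arrays lay within 0.03 of each other and both below wild type. Col5a3, an alternative type V chain, read 7.44, 7.77 and 7.77 (0.33 ± 0.26), with the uncv null arrays again together but above wild type. Col27a1, a fibrillar chain also known from cartilage, read 5.47, 5.47 and 4.85 (-0.31 ± 0.34), where null 2 alone was low. Over the 8 tested fibrillar chains the median difference was -0.22, from medians of -0.04 in null 1 and -0.41 in null 2, and 5 were lower and 1 higher in both.

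**Figure D2:**
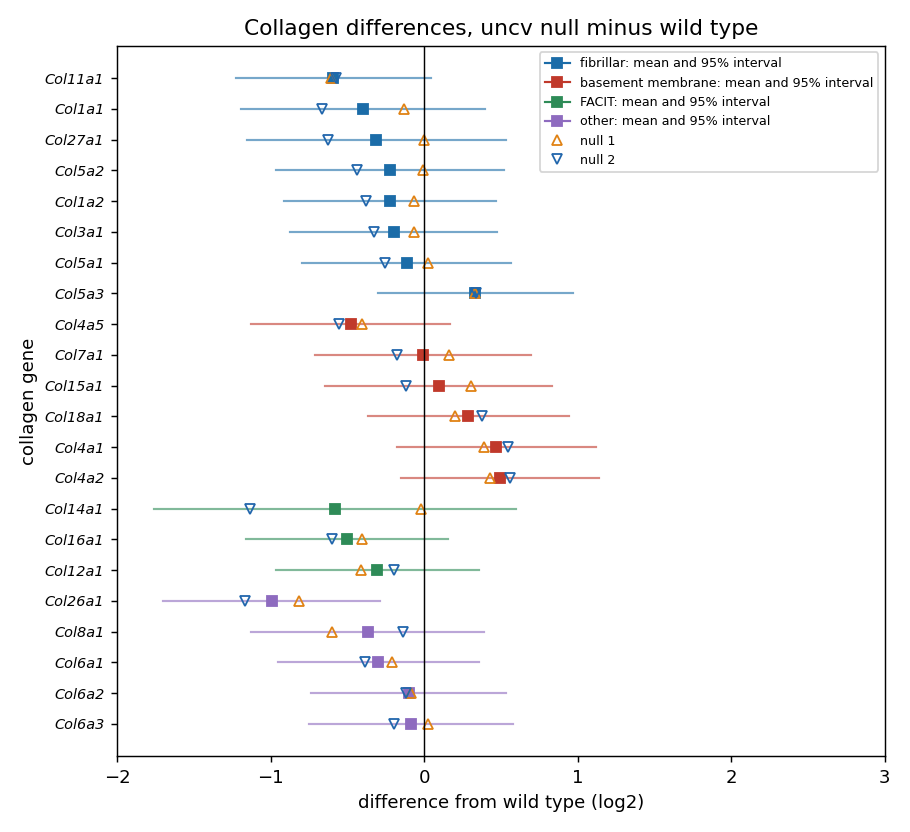
Differences from wild type in log2 units (horizontal axis) for each tested collagen; squares are the means over both uncv null arrays with limma's 95% intervals, open triangles the single uncv null arrays. Every interval but that of Col26a1 holds 0, and the blue triangles of null 2 lie left of the orange ones for 15 of 22 genes.

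In the basement membrane group, the chains of the ubiquitous type IV network lay above wild type. Col4a1 read 10.02 in wild type, 10.42 in null 1 and 10.57 in null 2 (0.47 ± 0.26, 95% interval -0.18 to 1.12). Col4a2, its partner in the same heterotrimer, read 9.26, 9.69 and 9.82 (0.49 ± 0.26, -0.15 to 1.14). The mean differences correspond to 1.38-fold and 1.41-fold, and each uncv null array lay farther above wild type than the uncv null arrays lay from each other. Being apart by more than that gap was seen on the higher side in 4 of 22 collagens (19.2% of all tested genes) and on the lower side in 6 (10.5%).

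The pair is known for being transcribed in opposite directions from a shared promoter, and the sequence around the starts is shown because both genes differed alike from wild type. In RefSeq the annotated starts lay 21 bases apart on chromosome 8, at 11312826 for Col4a1 on the minus strand and 11312805 for Col4a2 on the plus strand, so the annotated first exons overlap. The plus strand of chr8:11312801-11312830 (GRCm38.p6) is given with the 22 bases from one start to the other in capitals.
Col4a1/Col4a2: cggcAGTGCGCGGGCGGCGTCTCCAAgggg
The windows of both genes together span 522 bases, in which CCAAT was found 2 times on either strand, GGGCGG 3 times and TATAAA 0 times.

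Col4a5, an X-linked chain of the more restricted type IV networks that is mutated in Alport syndrome, went the other way from Col4a1 and Col4a2. It read 6.92 in wild type, 6.51 in null 1 and 6.36 in null 2 (-0.48 ± 0.26, 95% interval -1.13 to 0.17), so both uncv null arrays were low. Its neighbour and partner in the epidermal basement membrane, Col4a6, did not pass the filter (4.01 to 4.41). The median over the 3 tested type IV chains, 0.47, is therefore the value of Col4a1.

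Collagens of the basement membrane zone differed less. Col18a1, a multiplexin whose end domain is released as endostatin, read 7.70, 7.90 and 8.07 (0.29 ± 0.26), above wild type in both. Its relative Col15a1 read 7.46, 7.76 and 7.34 (0.09 ± 0.30), and Col7a1, the anchoring fibril collagen lost in dystrophic epidermolysis bullosa, read 6.84, 7.01 and 6.66 (-0.006 ± 0.28). For Col15a1 and Col7a1 wild type lay between the uncv null arrays. Over the 6 tested collagens of this group the median was 0.19 (0.25 in null 1 and 0.13 in null 2), with 3 higher and 1 lower in both. That the fibrillar and basement membrane groups differ from each other was not tested.

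**Figure D3:**
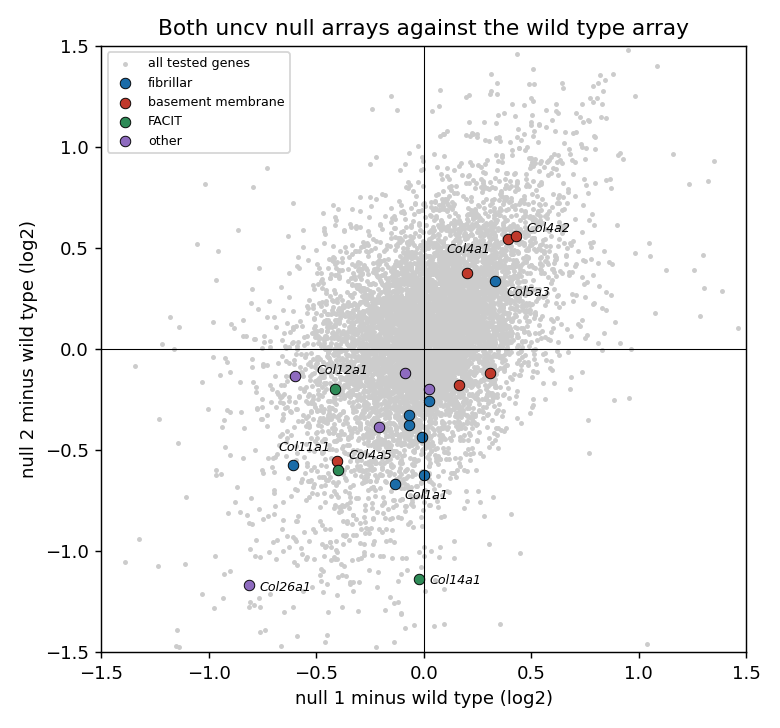
Difference from wild type in null 1 (horizontal axis) and null 2 (vertical axis), in log2 units, for tested collagens coloured by group over grey points for all tested genes; 99 genes lie outside the axes, and both axes share the wild type array. Col4a1 and Col4a2 sit together at upper right, Col26a1 at lower left, and Col14a1 far down on the line of no difference in null 1.

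The 3 tested FACITs were all lower than wild type in both uncv null arrays, with a median of -0.50. Col14a1, which binds the surface of dermal fibrils and regulates their early growth, read 9.21 in wild type, 9.19 in null 1 and 8.07 in null 2 (-0.58 ± 0.48). Its shortfall of 2.20-fold was thus seen in null 2, with 1.02-fold in null 1. Col16a1, a FACIT of the upper dermis, read 8.26, 7.86 and 7.66 (-0.50 ± 0.27, 95% interval -1.16 to 0.16), with the uncv null arrays nearer to each other than to wild type. Col12a1, the FACIT of dense connective tissue, read 9.26, 8.85 and 9.06 (-0.31 ± 0.27), and here null 1 was the lowest array.

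Among the other collagens, Col26a1 had the lowest difference of all tested collagens. It read 6.03 in wild type, 5.22 in null 1 and 4.86 in null 2, a difference of -0.99 ± 0.29 (1.99-fold lower, 95% interval -1.70 to -0.28). On the arrays taken singly the deficit was 1.76-fold and 2.25-fold. Its mean over the 3 arrays is close to the filter, and null 2 was below it, and how background correction bears on this dim probe set was not tested. A second Col26a1 probe set, below the filter, read 2.93 in wild type, 3.43 in null 1 and 2.99 in null 2. It was thus not lower in either null array, at values where no level above background is shown. The type VI chains, which form beaded microfibrils around cells and also surround muscle fibres, included Col6a2 and Col6a3, which lay nearest to wild type within this group. Col6a1 read 10.80, 10.59 and 10.42 (-0.30 ± 0.26), and its neighbour on chromosome 10, Col6a2, read 11.22, 11.13 and 11.10 (-0.10 ± 0.26). Col6a3 read 11.22, 11.25 and 11.02 (-0.09 ± 0.27). Col8a1, a short-chain collagen of vessels and the cornea, read 5.80, 5.20 and 5.67 (-0.37 ± 0.31), with null 1 the lowest. The group's median was -0.30 over 5 genes, of which 4 were lower and 0 higher in both.

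The 19 collagens below the filter had means from 2.66 to 4.93 and were not tested. Of these, 12 had a mean under 4, close to the arrays' medians of 3.65 to 3.70 over all probe sets, and no level above background was shown for them. They are the fibrillar Col11a2 (2.81 to 3.29, lowest to highest array) and Col24a1 (2.87 to 4.04), and the basement membrane Col4a3 (3.26 to 3.52) and Col4a4 (3.46 to 3.94). The FACITs Col9a2 (3.12 to 3.50), Col9a3 (3.46 to 4.44), Col19a1 (2.96 to 3.46) and Col22a1 (3.20 to 3.59) were in the same low range. So were Col6a4 (3.64 to 3.86), Col6a5 (2.59 to 2.74), Col10a1 (2.85 to 3.12), the marker of hypertrophic cartilage, and Col13a1 (2.96 to 3.94).

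The other 7 collagens below the filter had means of 4 or more, and null 2 was the lowest array in all 7, against 42.7% of genes with a mean from 4 to 5. The widest range was that of Col2a1, the fibrillar chain of cartilage, at 3.52 to 5.86. The FACIT Col9a1, which decorates type II fibrils, ran from 3.45 to 5.61, Col8a2 from 3.88 to 5.44 and Col23a1, a transmembrane collagen, from 4.12 to 5.40. The remaining members were Col25a1 (4.24 to 5.14), Col20a1 (3.89 to 4.11) and Col4a6, given above. Because the filter is on the mean over arrays, genes such as Col2a1 and Col8a2 fall out through a low value on null 2.

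Further probe sets gave a second reading for 12 of the tested collagens, since 13 more of their probe sets passed the filter. In 12 of these 13 the mean difference had the sign of the representative probe set. For Col3a1, Col1a2 and Col5a2 they placed null 2 lower than the brightest probe set did. The other Col3a1 probe set differed by -0.66 in null 2 where the representative differed by -0.33, and for Col1a2 the values were -0.66 and -0.38. For Col5a2 they were -0.85 and -0.44. In null 1 the same 3 additional probe sets were at -0.15, -0.14 and -0.07. Col14a1 was at -1.41 in null 2 and -0.28 in null 1 by its other tested probe set, and another, below the filter, read 5.92 in wild type, 3.24 in null 1 and 4.00 in null 2. Col4a1 was at 0.23 and 0.28 by its other probe set, less than by the representative. Col11a1 was at -0.001 in null 1 and -0.64 in null 2, so its even deficit was not seen by both probe sets. The exception in sign was Col1a1, whose second probe set read 7.48 in wild type, 9.40 in null 1 and 7.85 in null 2. Null 1 was thus high on this probe set, and was also the array with the highest 18S and 3′ to 5′ actin values; their part in this reading was not tested. Averaging all of a gene's probe sets, those below the filter included, took Col26a1 and Col8a1 below the filter. Among the 20 collagens left, it also changed 7 other differences by more than 1.5 times with no change of sign. Those of Col14a1 (-1.24), Col3a1 (-0.30) and Col5a2 (-0.34) became larger. Those of Col5a3 (0.11), Col4a5 (-0.29), Col12a1 (-0.20) and Col6a2 (-0.06) became smaller.

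**Figure D4:**
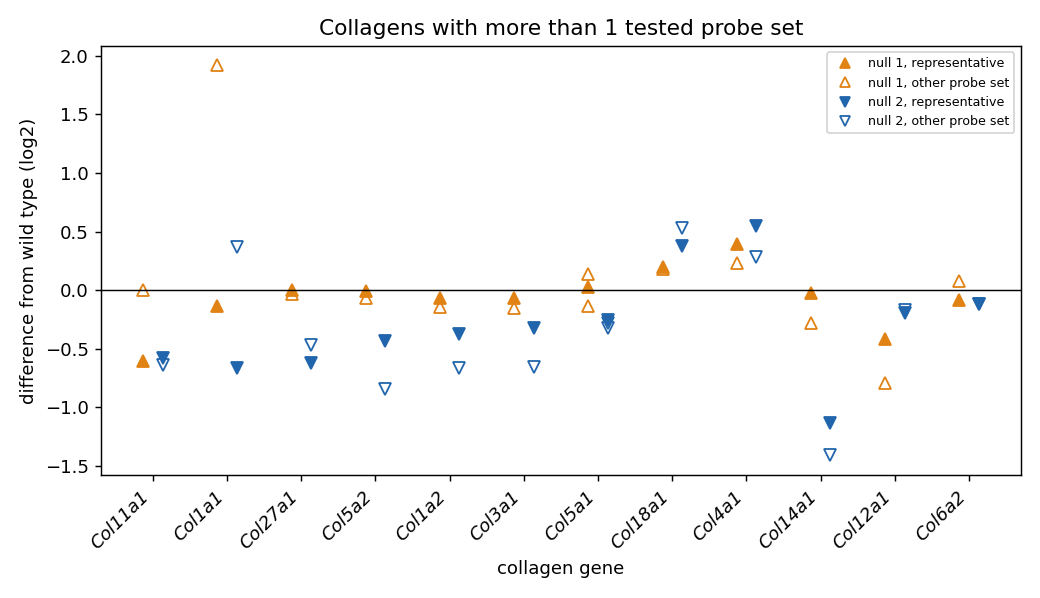
Difference from wild type in log2 units (vertical axis) for the 12 collagens with more than 1 tested probe set; filled symbols are representative probe sets, open ones the others, upward triangles null 1 and downward triangles null 2. The open symbols of Col1a1, at 1.92 and 0.37, are far from its filled ones at -0.13 and -0.67.

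Genes that make and assemble collagen also lay more often below than above wild type. Over all tested genes, 26.4% were lower and 38.8% higher in both arrays, for comparison with the counts of each list. Of 12 tested enzymes that hydroxylate or glycosylate collagen prolines and lysines, or belong to their complexes, 8 were lower and 1 higher in both arrays (median -0.19). Named by the size of their difference were the lysyl hydroxylases Plod2 (5.78, 5.05 and 5.24, a difference of -0.63 ± 0.27) and Plod1 (6.34, 5.75 and 5.79, -0.57 ± 0.26), which prepare lysines for cross-linking. P4ha2, a catalytic subunit of prolyl 4-hydroxylase, read 6.48, 6.17 and 5.93 (-0.43 ± 0.27). In all 3 both uncv null arrays were below wild type, and none passed the adjusted test, as holds for every gene of these lists.

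Of 12 tested genes for folding and secretion, 6 were lower and 1 higher in both (median -0.17). Serpinh1, the collagen chaperone HSP47, read 9.98 in wild type, 9.33 in null 1 and 9.23 in null 2 (-0.71 ± 0.26). Its uncv null arrays lay close together and both below wild type. Fkbp14, a prolyl isomerase for collagen, read 6.85, 6.57 and 6.02 (-0.56 ± 0.32), and the disulfide isomerase Pdia3 read 10.83, 10.28 and 10.63 (-0.38 ± 0.29). Only 2 propeptide-processing genes were tested, the enhancer Pcolce (9.02, 9.04 and 8.58, -0.21 ± 0.30) and the C-proteinase Bmp1 (6.52, 6.74 and 6.57, 0.13 ± 0.26), and these differed little.

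Cross-linking and fibril assembly genes had the lowest median of these lists, -0.35 over 15 genes, with 12 lower and 0 higher in both. The 3 with the largest differences encode small leucine-rich proteoglycans of the matrix, while Lum, another of that family that binds collagen fibrils, was at -0.36. Fmod read 7.17, 5.63 and 3.71 (-2.50 ± 0.74), Kera 7.47, 6.39 and 3.77 (-2.39 ± 0.98), and Ogn 9.12, 8.60 and 6.72 (-1.46 ± 0.73). In each of the 3 null 2 was the lowest array by a wide margin, and the values of Fmod and Kera on it were near that array's median of 3.65, where no level above background is shown, so the sizes of these 2 differences are uncertain. Of 10 tested genes for breakdown and uptake, 4 were higher (40%) and 6 lower (60%) in both (median -0.18). The share higher is near the 38.8% of all tested genes, and 26.4% of all tested genes were lower. Timp1, an inhibitor of matrix metalloproteinases, read 5.15, 6.10 and 7.52 (1.66 ± 0.57), Fap, a fibroblast protease, 7.96, 7.37 and 6.10 (-1.22 ± 0.53), and the gelatinase Mmp2 9.07, 9.02 and 8.29 (-0.42 ± 0.37). Timp1 and Fap lay on opposite sides of wild type, each farther away in null 2. Of 4 tested collagen receptors, 1 was higher and 2 lower in both. The adhesion receptor Adgrg1, which binds type III collagen, read 6.39, 6.89 and 7.29 (0.69 ± 0.29), the integrin subunit Itgb1 8.48, 7.82 and 8.30 (-0.42 ± 0.31), and the receptor kinase Ddr1 7.44, 7.31 and 7.20 (-0.19 ± 0.26).

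**Figure D5:**
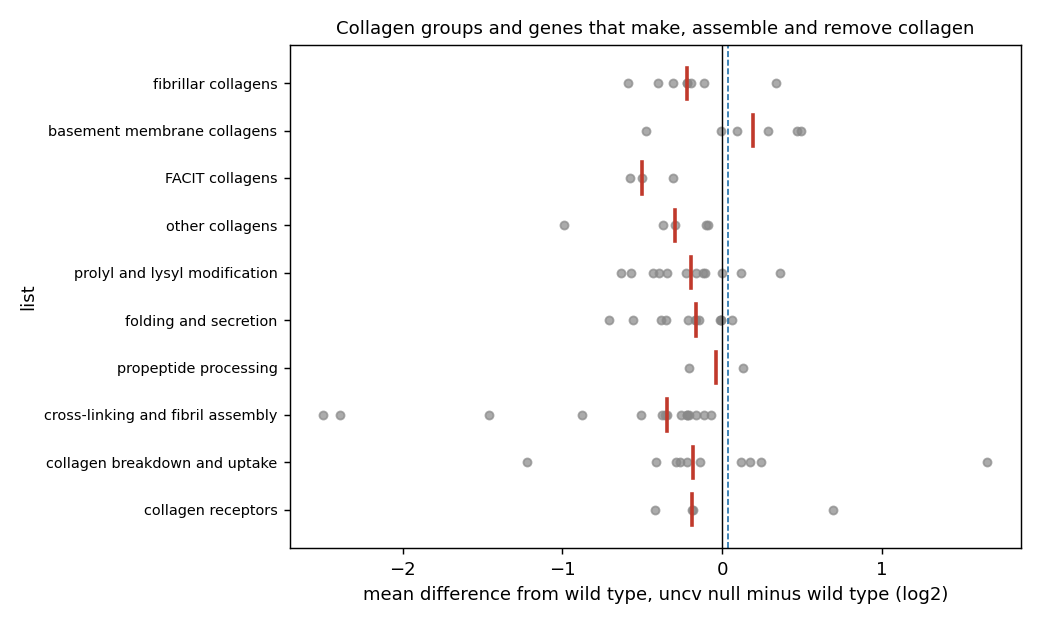
Mean difference from wild type over both uncv null arrays in log2 units (horizontal axis) for the tested genes of each collagen group and pathway list (grey points), with list medians in red and the median of all tested genes, 0.04, as a dashed line. The medians lie left of the dashed line in all but the basement membrane group.

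Markers of the cell types in whole skin differed from wild type too, some lists lying mostly below it and some mostly above. Their part in the collagen values was not tested. Of all tested genes, 26.4% were lower and 38.8% higher in both. Of 14 tested fibroblast markers other than collagens, 9 were lower and 2 higher in both (median -0.22, the same as the collagens'), and their mean log2 level was 8.66 in wild type, 8.61 in null 1 and 8.35 in null 2. Mfap5, a microfibril protein, was at -0.72 ± 0.34 and Dlk1, a marker of the deep dermal lineage, at -0.67 ± 0.40. The 2 higher in both were Pdpn at 0.53 and Thy1 at 0.50. Dcn, Lum and Fbln1, lower in both, were also counted among the cross-linking and fibril assembly genes. Skeletal muscle markers were lower in both for 10 of 12 (median -1.19), and their mean level was 8.89, 8.08 and 7.32. The list was uneven, with Actc1 at -2.08 ± 0.61, Myh3 at -2.03 ± 0.88 and Acta1 at -0.31. Des and Ryr1 were not lower in both. Outside the list, the muscle genes Actn3 (4.78, 6.10 and 7.09) and Actn2 (9.46, 9.09 and 8.39) lay on opposite sides of wild type. White adipocyte markers, whose cells are wrapped in type IV collagen, were higher in both for 8 of 8 (median 0.79), with mean levels of 7.72, 8.24 and 8.80, Retn at 1.64 ± 0.69 and Cidec at 1.05 ± 0.48. Keratinocyte markers were higher in both for 6 of 10 and lower for 0 (median 0.20), led by Itgb4 at 1.07 ± 0.31 and Dsp at 0.33 ± 0.26.

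Further cell types were read in the same way. Of 9 endothelial and mural markers, 3 were higher (33.3%) and 2 lower (22.2%) in both, near the 38.8% and 26.4% of all tested genes. The median was -0.002. Those lower were Tek at -0.77 ± 0.28 and Emcn at -0.71 ± 0.29, and those higher Cspg4 at 0.63, Rgs5 at 0.26 and Acta2 at 0.09. Macrophage markers were higher in both for 7 of 9 (median 0.30), with Lyz2 at 0.65 ± 0.39 and Cd163 at 0.54 ± 0.35. Schwann cell markers were lower in both for 2 of 4 (median -0.46), with Mbp at -1.57 ± 0.33 and Pmp22 at -0.66 ± 0.30. Of 12 cartilage and tendon markers 3 were tested, among them the tendon gene Tnmd at -0.78 ± 0.31 and Sox9, also a hair follicle gene, at 0.41 ± 0.34. The cartilage matrix genes Acan, Comp, Matn1 and Hapln1, like Col2a1 and Col9a1, did not pass the filter, nor did any of the 4 bone markers on the array.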

How the data were processed

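Total RNA from dorsal skin was hybridised to 1-colour arrays, 1 biotin-labelled array per sample. The authors deposited log2 values from RMA, as the submitters' processing notes name it; its software, version and background model were not given in the sources used here. RMA forces the arrays towards 1 intensity distribution, so a shift of all transcripts together would not be seen. Values ran from 1.96 to 13.1. The precision is limited by the 3 arrays. Of 45037 non-control probe sets (64 controls kept apart), the platform annotation pairs 34945 with 1 gene symbol, 932 with several and 9160 with none. Those with a mean of at least 5 (13559, or 8456 genes at 1 probe set per gene) were fitted by lmFit and eBayes of limma 3.58.1 (R 4.3.3, threshold 0.05 after Benjamini-Hochberg adjustment across these probe sets). The spread comes from the 2 uncv null arrays alone (1 residual degree of freedom, moderated with 4.75 prior degrees of freedom) and is taken to hold for the wild type array too. Nothing says beyond their labels how separately the samples were prepared, so p-values measure only the spread between these arrays. A run of the fit on simulated arrays of equal spread checked only the estimated sizes. It did not check whether the wild type array has the spread of the uncv null arrays. The collagens and lists were chosen with earlier results of these data known. Every tested collagen is named, and of each list the 3 (pathway) or 2 (marker) tested genes with the largest absolute difference; other genes named were chosen after their values were seen. RefSeq promoter windows came from GRCm38.p6. Alternatives were other filters, normalizations, variance models and probe set rules, and leaving out each uncv null array.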

Additional observations from a re-analysis of the deposited data

How the results depend on the processing

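Limma called 0 collagens under each of the 8 other fits, and with 1 residual degree of freedom no fit called any gene, so this says nothing about stability. Direction held for all 22 tested collagens with median centring and quantile normalization; a filter on the mean cannot alter a gene's own difference. Collagens lower in both arrays numbered 11 under each of median centring, quantile normalization and averaging of probe sets. Averaging each gene's probe sets, direction held for 19 of 20, the exception being Col1a1 at 0.37, which its second probe set accounts for. Col26a1 and Col8a1 fell below the filter under this rule. With no filter 22 of 41 collagens were lower in both uncv null arrays, and the medians were 0.094 for basement membrane, -0.21 for FACIT and -0.31 for other collagens. At a minimum mean of 7 the medians were 0.38 for basement membrane and -0.10 for other collagens. Other collagens had a median of -0.087 with averaged probe sets, -0.32 median-centred and -0.26 after quantile normalization. With type IV alone the basement membrane median was 0.47. At 1.5-fold, 1 collagen differed from wild type in both arrays. Leaving out each uncv null array in turn, the collagens lower than wild type numbered 13 to 18, those higher 4 to 9, and those at least 2-fold away 0 to 2, these being Col14a1 and Col26a1 on null 2 alone. The median over tested collagens ran from -0.29 to -0.045, and that of other collagens from -0.21 to -0.20. The differences of 5 genes changed sign between the arrays: Col15a1 (-0.12 to 0.31), Col7a1 (-0.18 to 0.17), Col5a1 (-0.26 to 0.026), Col27a1 (-0.62 to 0.0018) and Col6a3 (-0.20 to 0.025). The cause was not tested. With 1 uncv null array there is no residual degree of freedom and no test, and wild type cannot be left out, being a single array. No paired analysis was possible with 1 wild type array for 2 uncv null arrays. Signal over background was not used here.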

Other observations

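Partners of type IV collagen in basement membranes were read for context, in a list added after the collagen values were seen. Of 13 tested laminin chains, nidogens and basement membrane proteoglycans, 5 were higher (38.5%) and 1 lower (7.7%) than wild type in both null arrays. Over all tested genes these shares were 38.8% and 26.4%. The list's median was 0.05 (0.16 in null 1 and -0.06 in null 2), close to the 0.04 of all tested genes. Col4a1 and Col4a2 were at 0.47 and 0.49. The laminin-332 chains Lama3 and Lamb3, which anchor basal keratinocytes, were at 0.45 ± 0.31 and 0.45 ± 0.30. Hspg2, which encodes perlecan, read 6.72 in wild type, 7.28 in null 1 and 6.47 in null 2, so the uncv null arrays lay on either side of wild type. Nid1, which links laminin to type IV collagen, was at 0.16 in null 1 and -0.23 in null 2. No member passed the adjusted limma test.

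Neighbouring collagen genes were read side by side for the 3 of 8 pairs in which both were tested. Col4a1 and Col4a2 differed from wild type by 0.39 and 0.43 in null 1 and by 0.55 and 0.56 in null 2. Col3a1 and Col5a2 were at -0.07 and -0.01 in null 1 and at -0.33 and -0.44 in null 2. Col6a1 and Col6a2 were at -0.21 and -0.09 in null 1 and at -0.38 and -0.12 in null 2. Both members of each pair thus differed from wild type in 1 direction on each array, though Col5a2 in null 1 only by -0.01. This describes 3 pairs whose differences share the wild type array, and how often other gene pairs do so was not counted. Among the pairs with an untested member, Col6a5 (0.15 in null 1 and 0.05 in null 2) and Col6a4 (-0.22 and -0.16) lay on opposite sides of wild type, at levels below the filter.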
